A study of Homo sapiens with 6 samples.

Results

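The early response to extracellular ATP was examined on 4 of the 6 arrays of the study: the arrays of subclones 1E8 and 2B4 after 6 h with ATP, each beside the untreated array of the same subclone. The members were chosen by the titles of the arrays. Both subclones derive from PC-3M, a metastatic variant of the human prostate carcinoma line PC-3, and 1E8 is known for high and 2B4 for low metastatic capacity. The ATP groups received 100 µM ATP for 6 h, the control groups received none, and all cells were kept in RPMI medium with serum. Each subclone is 1 clonal line, each group has 1 array, and no time is given for the controls, so the effect of ATP and that of time in culture or of the single dish cannot be told apart. The other 2 arrays (ATP for 12 h) entered only the estimate of the spread and a comparison at the end.

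ATP outside the cell is a signal of injury, stress and mechanical strain. It opens P2X receptor channels and activates P2Y receptors, which couple to G proteins and raise cytosolic calcium. The signal reaches ERK and other kinases, which switch on immediate early transcription factors such as the AP-1 family, and these in turn act on cytokines, growth factors and the feedback inhibitors of the pathway. Ectonucleotidases degrade ATP stepwise to adenosine, which has receptors of its own.

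The deposited intensities were linear, background-subtracted values with a mean between 193.3 and 193.7 units on the 4 arrays, each with 34594 entries. An entry counted as detected above a limit set from the dim values of its array (their peak plus 3 widths). That limit was 46.9 on the 1E8 ATP array and 45.3 on the 2B4 ATP array, against 29.7 on the 1E8 control array and 52.5 on the 2B4 control array. The 1E8 control array thus stood apart, with the narrowest background and the most entries above the limit, 11236, where the other 3 arrays compared had 9408 to 9779. Of 8 genes that mark PC-3 cells, 8 were above the limit on all 4 arrays, with summed intensities of 8518 and 8084 on the ATP arrays and 8907 and 7798 on the control arrays (1E8 before 2B4). None of 5 prostate luminal genes low in PC-3, 5 fibroblast markers and 5 leukocyte markers was above the limit on any array, and of 4 endothelial markers only PECAM1 was. Differences below are of log2(intensity + 16), ATP minus control, and understate the change of dim genes. A fitted difference is the mean of both subclones with its standard error (SE) from a limma fit over 6 arrays, whose 2 residual degrees of freedom measure the spread between subclones and not between cultures.

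No single gene passed the test: limma called 0 of 11101 tested genes (0%) at an adjusted p under 0.05, and the smallest adjusted p was 0.164. At an unadjusted p under 0.05, 356 genes (3.21%) were higher with ATP and 731 (6.58%) lower, where 555.05 in all would be passed by chance. Median scaling of the arrays turned that split into 491 higher and 549 lower genes, and quantile normalization into 480 and 585. With the 4 arrays alone, where 1 residual degree of freedom is left, limma called 9 genes: CXCL8, MUC13, TERC, SCARNA8, SCARNA11, SCARNA14 and LINC00161 higher with ATP, and RHOU and PRRT3 lower. With a trend of variance on intensity, it called CXCL8 alone (adjusted p = 0.0428). In the sentences below, "higher" and "lower" therefore give the values of these arrays, and agreement between the subclones takes the place of a called test.

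Most differences of at least 1.5-fold were seen in 1 of the subclones and not in the other. Among 8658 genes above the limit on all 4 arrays, 133 (1.54%) were at least 1.5-fold higher with ATP in 1E8 and 87 (1%) in 2B4, and 335 (3.87%) were at least 1.5-fold lower in 1E8 and 111 (1.28%) in 2B4. Both subclones had 24 genes (0.277%) higher by that much, which were 18% of those in 1E8 and 27.6% of those in 2B4. They had 30 (0.347%) lower by that much, which were 8.96% of those in 1E8 and 27.0% of those in 2B4. At 2-fold, 18 genes were higher in 1E8 and 6 in 2B4, and the 5 higher in both (0.0578%) were 27.8% and 83.3% of these. Lower by 2-fold were 27 genes in 1E8 and 13 in 2B4, and the 4 lower in both (0.0462%) were 14.8% and 30.8% of these. Only 2 genes were at least 1.5-fold higher in 1E8 and lower in 2B4, and 2 the reverse. By any amount, 86 of the 133 genes higher in 1E8 were also higher in 2B4, and 93 of the 111 lower in 2B4 were also lower in 1E8. Over all 8658 genes the sign was the same in 53.1%, and the differences of the subclones correlated at r = 0.19 across genes, which are not independent replicates. The excess of lower genes in 1E8 depended on the scaling: its median difference was -0.06, against 0.05 with median scaling, and its counts then became 269 higher and 151 lower, or 204 and 190 with quantile normalization. The counts in both subclones were 23 higher and 21 lower under the first of these and 25 and 21 under the second.

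**Figure D1:**
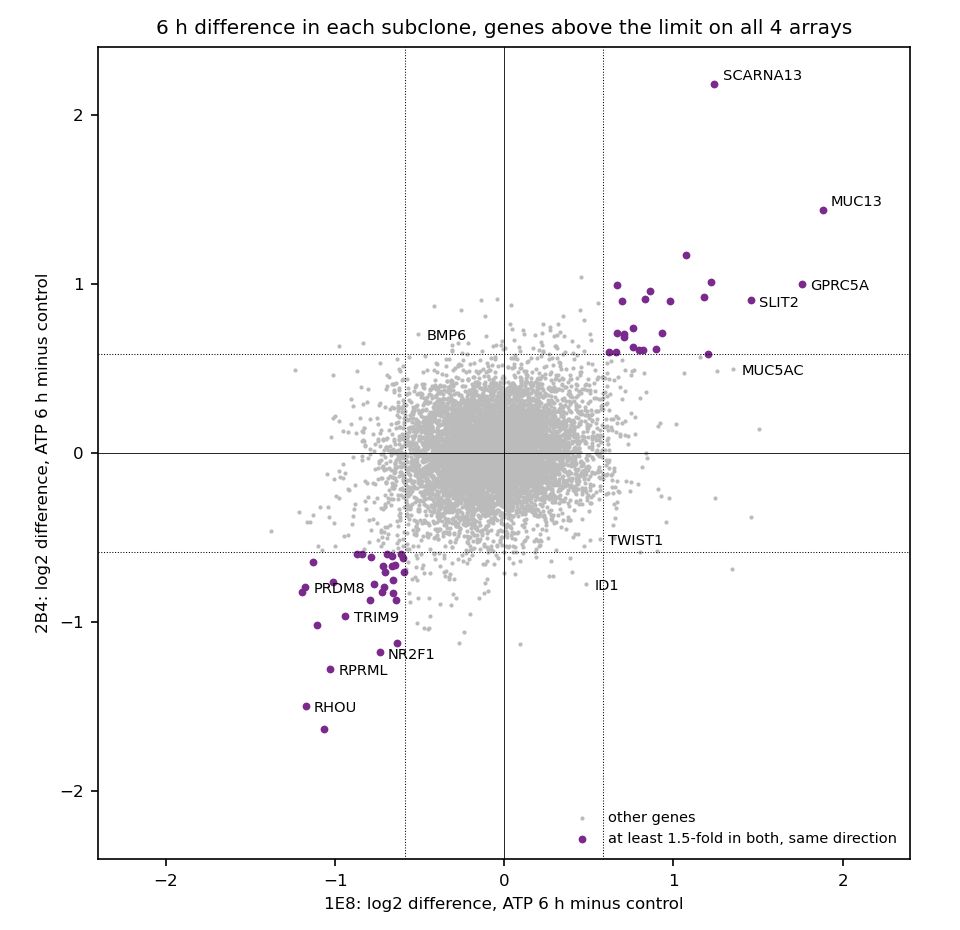
Each point is 1 of the 8658 genes above the detection limit on all 4 arrays, placed by its log2 difference (ATP 6 h minus control) in 1E8 on the horizontal axis and in 2B4 on the vertical axis. Dotted lines mark 1.5-fold. The 24 genes higher and 30 lower in both subclones lie in 2 opposite corners, while most points form a round cloud about 0.

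The control intensity of the 24 genes higher in both subclones had a median of 152 units, against 271 for all 8658 genes above the limit on all 4 arrays. None of the 24 was over 1000, where 1527 of the 8658 were, and 21 code for protein, as do 7092 of the 8658. The 30 lower genes had a median control intensity of 282 units, with 3 over 1000. The 15 highest and 15 lowest genes, ranked by the smaller of the differences in the 2 subclones and leaving out placeholder symbols such as those that begin with LOC or FLJ, are described next as far as reported here, followed by lists of related genes. Of the 15 highest, 13 had both ATP arrays above both control arrays, and 2, IL7R among them, did not. Of the 15 lowest, 12 had both ATP arrays below both control arrays, and TRIM9, HSD17B2 and LFNG did not. Over all 8658 genes these shares were 10.5% and 14.9%; the ranking used the same values, so nothing is read from this.

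**Figure D2:**
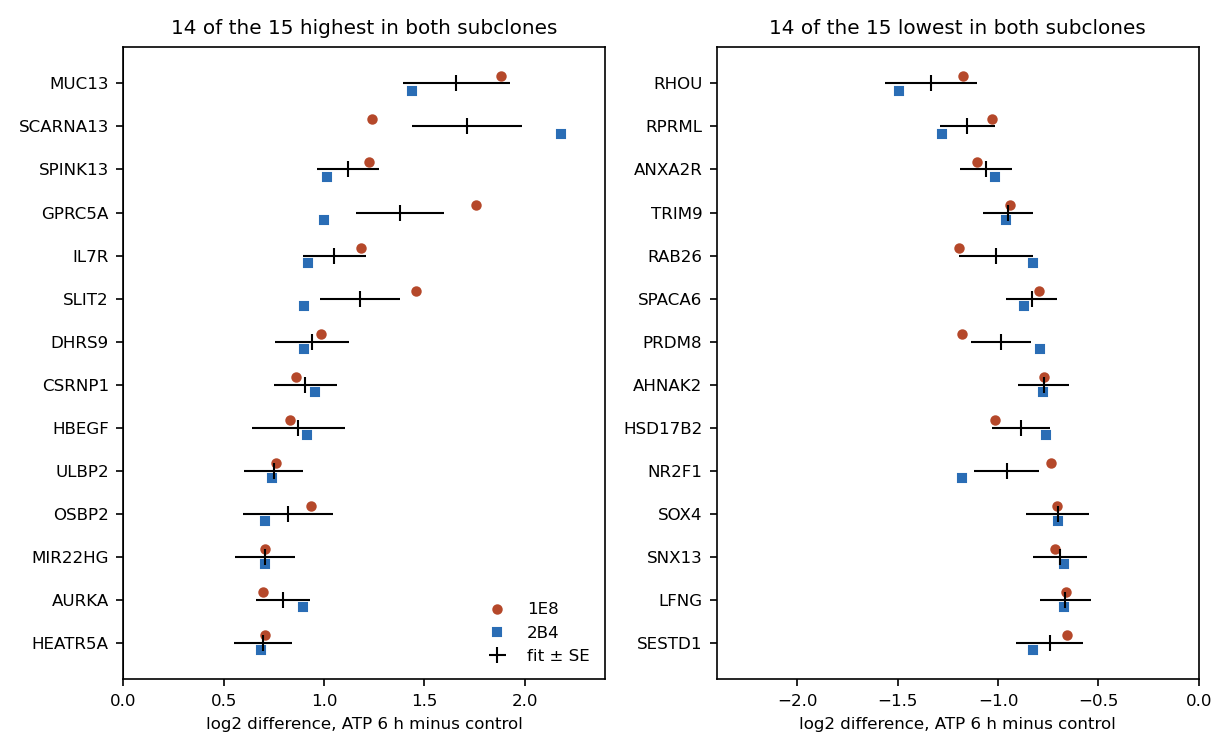
Log2 difference (ATP 6 h minus control) of 14 of the 15 highest and 14 of the 15 lowest genes, in 1E8 (circles) and 2B4 (squares), with the fitted mean and its SE from 6 arrays (bars). The values of the subclones lie close for TRIM9, AHNAK2 and SOX4 and far apart for SCARNA13 and GPRC5A.

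Promoters are shown for 3 secreted or surface proteins that were higher in both subclones and whose RefSeq promoter (GRCh38.p14, 250 bases before to 50 after the start of the gene) holds a motif of a factor downstream of ERK, calcium or cAMP. Capitals mark the motifs. MUC13 (chr3:124934702-124935001, minus strand) has an AP-1 motif 178 to 172 bases and a cAMP response element (CRE) 68 to 61 bases before its start. SPINK13 (chr5:148268544-148268843, plus strand) has an AP-1 motif 67 to 61 bases before its start. CXCL8 (chr4:73740319-73740618, plus strand) has an AP-1 motif 137 to 131 bases and a short NF-kB motif 91 to 83 bases before its start, the arrangement for which this promoter is known.
MUC13: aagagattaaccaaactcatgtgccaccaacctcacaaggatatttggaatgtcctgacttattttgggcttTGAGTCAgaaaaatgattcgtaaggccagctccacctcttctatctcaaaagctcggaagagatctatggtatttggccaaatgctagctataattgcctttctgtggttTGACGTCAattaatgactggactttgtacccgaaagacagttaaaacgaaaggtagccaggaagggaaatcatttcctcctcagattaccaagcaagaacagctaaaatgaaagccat
SPINK13: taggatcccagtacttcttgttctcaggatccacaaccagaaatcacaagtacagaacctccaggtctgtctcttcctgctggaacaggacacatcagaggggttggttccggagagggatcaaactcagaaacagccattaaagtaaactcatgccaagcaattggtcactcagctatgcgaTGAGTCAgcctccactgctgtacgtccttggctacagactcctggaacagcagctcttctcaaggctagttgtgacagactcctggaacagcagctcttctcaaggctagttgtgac
CXCL8: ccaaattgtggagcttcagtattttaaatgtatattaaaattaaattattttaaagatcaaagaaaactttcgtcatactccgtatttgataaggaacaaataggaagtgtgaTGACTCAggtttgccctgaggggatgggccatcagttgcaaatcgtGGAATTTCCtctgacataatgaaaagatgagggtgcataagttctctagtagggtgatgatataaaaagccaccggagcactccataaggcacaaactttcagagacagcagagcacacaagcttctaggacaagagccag

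Of the 15 highest genes, 11 had such a promoter entry, and 4 of these (MUC13, SPINK13, ULBP2 and OSBP2) held the AP-1 motif TGANTCA on either strand. Of the 15 lowest genes, 11 had an entry and 0 held it. The motif was in 7.76% of all 27305 promoters of the same length and in 4.39% of those of 7486 tested genes. The full CRE, TGACGTCA, was in 1.98% of all promoters and 3.63% of those of tested genes and, of the 11 highest and 11 lowest genes, in MUC13 alone. Its short form TGACGT, which the full motif contains on both strands, was also in MUC13 alone (8.32% of all and 12.8% of tested promoters). The other motifs searched on both strands were in none of the 11 highest or the 11 lowest. Their shares of all and of tested promoters were 1.92% and 2.26% for the NF-kB motif in a long form, 0.472% and 0.441% for its form GGAATTTCC, and 0.487% and 0.347% for the heat shock element. They were 9.28% and 15.5% for the EGR1 motif GCGNGGGCG, 0.128% and 0.294% for the C/EBP motif TTGCGCAA, 7.43% and 10.5% for the E-box CACGTG, and 4.44% and 9.90% for the ETS motif CCGGAAGT. A match describes these letters and is not shown to be a bound site.

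Several of the highest genes code for secreted or surface proteins. MUC13, a transmembrane mucin of epithelial surfaces, had intensities of 718 in 1E8 and 206 in 2B4 with ATP, against 183 in 1E8 and 65.8 in 2B4 without. Both ATP arrays lay above both controls, and the fitted difference was 1.66 ± 0.27 (SE; limma adjusted p = 0.200). Of 12 mucins on the array, 3 were tested, and the gel-forming mucin MUC5AC was the other one higher in both subclones, at 1137 in 1E8 and 598 in 2B4 with ATP, against 435 and 419 without, most of it in 1E8 (1.35, against 0.50 in 2B4). SPINK13, deposited as SPINK5L3 and a member of the Kazal family of serine protease inhibitors, measured 289.6 in 1E8 and 139.6 in 2B4 with ATP, against 115 in 1E8 and 61.0 in 2B4 without, a fitted difference of 1.12 ± 0.15. GPRC5A, an orphan receptor induced by retinoic acid, measured 358 in 1E8 and 569 in 2B4 with ATP, against 94.5 in 1E8 and 277 in 2B4 without. Its difference was 1.76 in 1E8 and 1.00 in 2B4, so the subclones differed more in size than in direction.

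SLIT2, a secreted guidance ligand of ROBO receptors, reached 253 in 1E8 and 207 in 2B4 with ATP, against 82.0 in 1E8 and 103 in 2B4 without, a fitted difference of 1.18 ± 0.20. IL7R, a chain of the interleukin-7 receptor, measured 185 in 1E8 and 448 in 2B4 with ATP, against 72.6 in 1E8 and 229 in 2B4 without; the level depended on the subclone, so the ATP and control arrays overlapped, but the difference was 1.18 in 1E8 and 0.92 in 2B4. HBEGF, a ligand of the EGF receptor that is cleaved from the membrane, measured 201 in 1E8 and 155 in 2B4 with ATP, against 106 in 1E8 and 74.8 in 2B4 without (fitted difference 0.87 ± 0.23). ULBP2, a stress ligand of the NKG2D receptor of natural killer cells, had almost the same values in each subclone: 241 in 1E8 and 245 in 2B4 with ATP, against 136 in 1E8 and 141 in 2B4 without. MICB, another ligand of that receptor, followed just outside the first 15, at 337 in 1E8 and 317 in 2B4 with ATP and 192 in 1E8 and 199 in 2B4 without, and was picked for mention after its values were seen.

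Others of the 15 code for proteins inside the cell. DHRS9, a retinol dehydrogenase, stood at 230.0 in 1E8 and 201 in 2B4 with ATP and at 109 in 1E8 and 100.4 in 2B4 without, which gave 0.94 ± 0.18. CSRNP1, a nuclear protein deposited as AXUD1, differed by 0.86 in 1E8 and 0.96 in 2B4, and OSBP2, an oxysterol-binding protein, by 0.93 and 0.71. AURKA, the mitotic kinase Aurora A, measured 984 in 1E8 and 993 in 2B4 after ATP, against 601 in 1E8 and 526 in 2B4 without (0.80 ± 0.13). HEATR5A came last of the 15, at 0.70 in 1E8 and 0.68 in 2B4.

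MIR22HG, deposited as C17ORF91, is the host transcript of miR-22, a microRNA whose host gene is known to be induced by stress. It measured 215 in 1E8 and 307 in 2B4 with ATP, against 125 in 1E8 and 182 in 2B4 without, a fitted difference of 0.71 ± 0.15. The array measured the host and not the mature miRNAs, whose RefSeq sequences are shown with the seed (bases 2 to 8) in capitals to identify the product.
miR-22-3p: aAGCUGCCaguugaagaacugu
miR-22-5p: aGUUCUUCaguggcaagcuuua

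Several RNAs that reside in Cajal bodies, the nuclear bodies where small nuclear RNAs are modified, were brighter with ATP. SCARNA13 measured 209 in 1E8 and 378 in 2B4 with ATP, against 79.2 in 1E8 and 70.8 in 2B4 without, a fitted difference of 1.71 ± 0.27. The RNA template of telomerase, TERC, which also passes through Cajal bodies, measured 123 in 1E8 and 141 in 2B4 with ATP, against 39.0 in 1E8 and 44.4 in 2B4 without (1.36 ± 0.13, limma adjusted p = 0.164). Its 2B4 control lay under the limit, so that in 2B4 the values give a bound of at least 2.69-fold. Of 24 SCARNA entries on the array, 8 were tested, and only SCARNA13 and SCARNA10 were above the limit on all 4 arrays. SCARNA10 measured 300.2 in 1E8 and 273 in 2B4 with ATP, against 246 in 1E8 and 263 in 2B4 without. SCARNA16 was under the limit on the 2B4 control array, and the other 5 were above it on both ATP arrays and neither control array. These 6 were tested through arrays on which they were bright, so the direction of the family is not counted, and the family was looked at after its values were seen. These RNAs lack poly(A) tails in their mature form, and the labelling kit primes from such tails; what form was measured was not tested.

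Of 11101 tested genes, 14 without placeholder symbols were above the limit on both ATP arrays and on neither control array. They include the SCARNA genes given above as bright on the ATP arrays only. For such genes only a lower bound can be given (the mean of the bright arrays over the higher of the limit and the value of the dim ones). SCARNA18 was at least 3-fold higher with ATP, at 88.5 in 1E8 and 159 in 2B4, against 28.8 in 1E8 and 21.4 in 2B4 without. SCARNA8 was at least 2.45-fold higher, LINC00161, a noncoding RNA, at least 1.82-fold, SCARNA11 at least 1.55-fold and RPRM, the p53-inducible cell cycle inhibitor Reprimo, at least 1.52-fold. In the other direction, 72 genes without placeholder symbols were above the limit on both control arrays and on neither ATP array, and some of these left no bound. The largest bounds were those of PRRT3, at least 2.19-fold lower with ATP, the tetraspanin TSPAN15 (1.70), SHISAL1 (deposited as KIAA1644; 1.67), the acid-sensing channel ASIC1 (deposited as ACCN2; 1.65) and NUDT18 (1.61). The lower limit of the 1E8 control array makes a bound in this direction easier to meet.

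RHOU, an atypical small GTPase, headed the lower genes and measured 108 in 1E8 and 59.5 in 2B4 with ATP, against 263 in 1E8 and 197 in 2B4 without. Both ATP arrays lay below both controls, with a fitted difference of -1.33 ± 0.23 (limma adjusted p = 0.200). RPRML, a paralogue of RPRM, was at 93.7 in 1E8 and 76.5 in 2B4 with ATP, where both controls were at 208 (-1.15 ± 0.14). RPRM and its paralogue thus had differences of opposite sign. ANXA2R, the annexin A2 receptor deposited as C5ORF39, measured 198 in 1E8 and 158 in 2B4 with ATP, against 444 in 1E8 and 336 in 2B4 without.

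Among the transcription factors, NR2F1, an orphan nuclear receptor of development also known as COUP-TFI, measured 968 in 1E8 and 543 in 2B4 after ATP, against 1624 in 1E8 and 1249.7 in 2B4 without. Its difference was -0.74 in 1E8 and -1.18 in 2B4. PRDM8, of the PRDM family of chromatin regulators, measured 243 in 1E8 and 493 in 2B4 with ATP, against 570.4 in 1E8 and 866 in 2B4 without. SOX4, an HMG-box factor, had differences of -0.70 in each subclone, at 273 in 1E8 and 285 in 2B4 with ATP, against 455 in 1E8 and 473 in 2B4 without. HEY1, a target of Notch signalling that was picked after its values were seen, measured 99.2 in 1E8 and 255 in 2B4 with ATP, against 162 in 1E8 and 574 in 2B4 without. LFNG, the glycosyltransferase that modifies Notch receptors, measured 163 in 1E8 and 73.9 in 2B4 with ATP, against 268 in 1E8 and 127 in 2B4 without.

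The remaining lower genes had varied roles. TRIM9, a ubiquitin ligase known from neurons, differed by -0.94 in 1E8 and -0.96 in 2B4, and AHNAK2, a giant scaffold protein, by -0.77 and -0.78. RAB26, a GTPase of secretory vesicles, differed by -1.19 in 1E8 and -0.82 in 2B4. HSD17B2, which oxidises testosterone and estradiol to less active steroids, measured 122 in 1E8 and 388 in 2B4 with ATP, against 262 in 1E8 and 668 in 2B4 without. SPACA6 (deposited as NCRNA00085), the sorting nexin SNX13 and SESTD1 had fitted differences of -0.83 ± 0.13, -0.69 ± 0.13 and -0.74 ± 0.17. The adjusted p of the 15 lowest genes lay between 0.200 and 0.247, and that of the highest genes described above between 0.200 and 0.307.

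**Figure D3:**
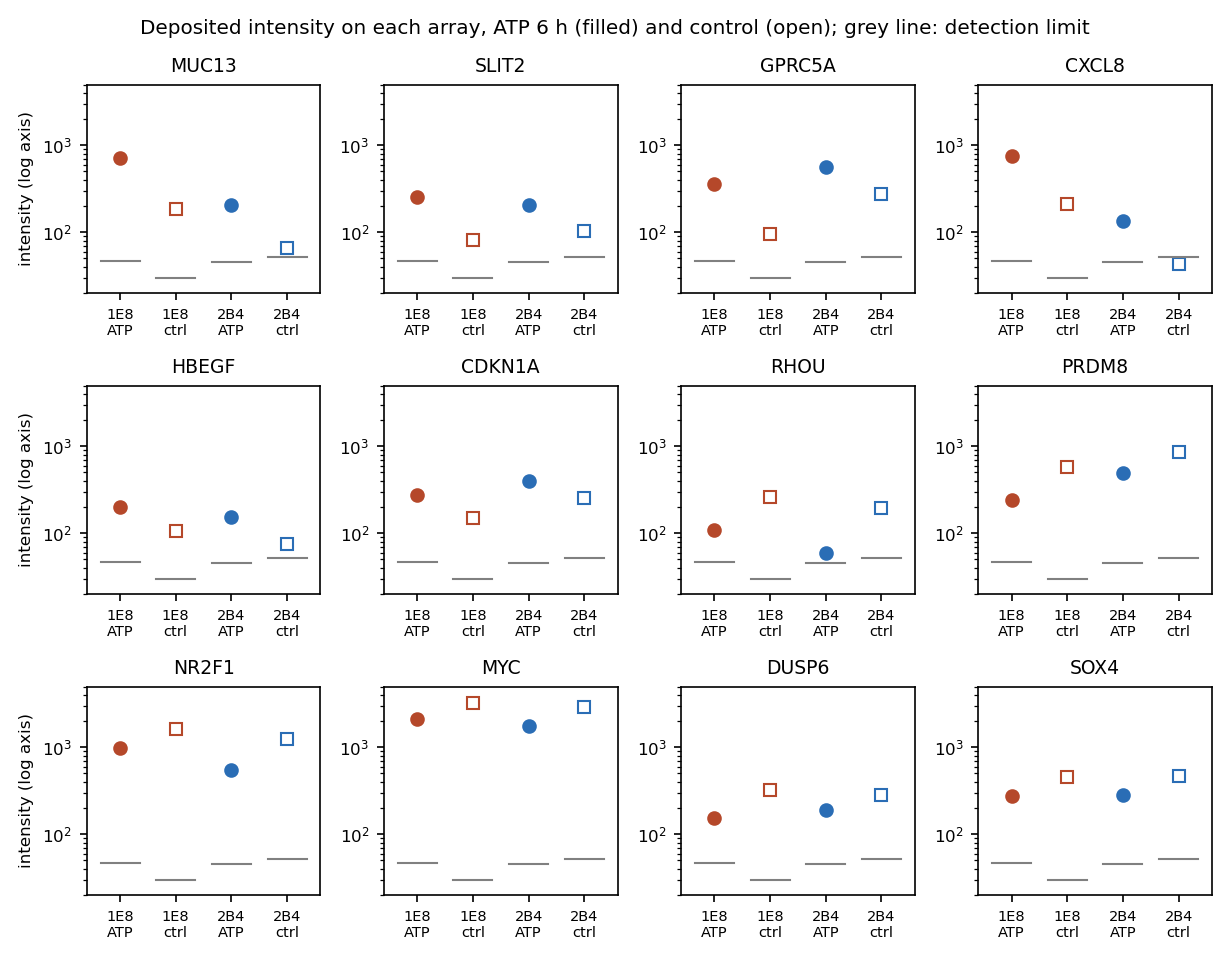
Deposited intensity (log axis) of 12 genes on each array compared, 1E8 in red and 2B4 in blue, ATP 6 h filled and control open; the grey line is the detection limit of the array. MUC13, CXCL8 and GPRC5A lie higher and RHOU, NR2F1 and MYC lower with ATP in each subclone, while CXCL8 and MUC13 are brighter in 1E8 than in 2B4 in both conditions.

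Few receptors for ATP were measurable. Of 17 P2 receptor genes on the array, 3 were above the limit on any of the 6 arrays and 0 on all 4 arrays compared. P2RY11, a receptor for ATP that couples to calcium and cAMP, measured 84.7 in 1E8 and 87.3 in 2B4 with ATP, against 41.1 in 1E8 and 22.3 in 2B4 without. The 2B4 control was under the limit, which makes the 2B4 value at least 1.66-fold higher. Its gene overlaps a read-through transcript with its neighbour, entered on the array as PPAN-P2RY11, which had 40.1 in 1E8 and 40.4 in 2B4 with ATP, against 57.2 in 1E8 and 66.9 in 2B4 without, so the 2 entries differed in sign and how they share the transcript is uncertain. P2RY2, the receptor for ATP and UTP, was under the limit on the 4 arrays but for 30.7 on the 1E8 control array, and P2RX4, a channel, measured 43.0 in 1E8 and 35 in 2B4 with ATP, against 47.7 in 1E8 and 24.6 in 2B4 without. Of these 4 arrays, P2RX4 too was above the limit on the 1E8 control array alone.

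Of 20 genes for the breakdown of ATP and the handling of adenosine, 9 were tested; 5 were higher and 3 lower in both subclones, and 0 passed the test. For all tested genes the shares were 21.8% higher and 31.8% lower in both subclones by any amount, and they are the measure for all lists below. Lists and shares alike count genes above the limit on any of the 6 arrays, some of them in the ATP or the control group only. PANX1, the pannexin channel through which cells release ATP, differed by 0.36 in 1E8 and 0.50 in 2B4. NT5E, the ecto-enzyme CD73 that makes adenosine, differed by 0.32 and 0.25, and the adenosine receptor ADORA2B measured 836 in 1E8 and 1027 in 2B4 with ATP, against 739 in 1E8 and 883 in 2B4 without. The adenosine transporter SLC29A2 (-0.47 in 1E8 and -0.41 in 2B4) and adenosine deaminase ADA (-0.33 and -0.28) lay lower.

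Of 26 listed immediate early and AP-1 genes, 17 were tested, 11 of them above the limit on all 4 arrays. Of the 17, 9 (52.9%) were higher and 1 lower in both subclones, with a median of 0.23 against -0.04 for all tested genes. ATF3 is counted among the 9 though it was tested only through its 1E8 ATP array, so nothing is read from that share. FOSB, an AP-1 subunit, measured 117 in 1E8 and 58.4 in 2B4 with ATP, against 49.7 in 1E8 and 34.9 in 2B4 without. Its 2B4 control was under the limit, which makes the 2B4 value at least 1.11-fold higher. ATF3, a stress-induced factor, was above the limit with ATP in 1E8 only, at 55.6, and IER5 differed by 0.31 in 1E8 and 0.62 in 2B4. MYC, the growth-promoting factor, was the member lower in both: 2110.3 in 1E8 and 1759.7 in 2B4 with ATP, against 3195 in 1E8 and 2878 in 2B4 without, a fitted difference of -0.65 ± 0.13. Of 15 tested genes of negative feedback on ERK, 14 were above the limit on all 4 arrays. Of the 15, 3 were higher and 9 (60%) lower in both, with a median of -0.14. DUSP4 is counted among the 9 though, of these 4 arrays, it was above the limit on the 1E8 control array only. Nothing is read from that share either. DUSP6, the phosphatase that inactivates ERK in the cytoplasm, measured 155 in 1E8 and 188 in 2B4 with ATP, against 326 in 1E8 and 282 in 2B4 without, whereas DUSP5, its nuclear counterpart, measured 290.0 in 1E8 and 516 in 2B4 with ATP, against 188 in 1E8 and 376 in 2B4 without. The ERK pathway inhibitor SPRED1 differed by -0.36 in each subclone.

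CXCL8, the neutrophil chemokine interleukin-8 (deposited as IL8), had the smallest adjusted p of the fit, 0.164, together with TERC. It measured 757 in 1E8 and 133 in 2B4 with ATP, against 210.4 in 1E8 and 43.1 in 2B4 without, where the 2B4 control lay below its limit. The log2 difference was 1.77 in 1E8, and the fitted log2 mean of both subclones was 1.55 ± 0.16 over the values as deposited. In 2B4 the bound, which is a fold and not in log2, was at least 2.54-fold. The level on the control array of 1E8 was higher than that on the ATP array of 2B4. The NF-kB targets did not follow CXCL8 as a list. Of 13 tested, CXCL8 included, 5 were higher and 2 lower in both, with a median of 0.04. Of the 13, 6 were above the limit on all 4 arrays. NFKBIA, the inhibitor that NF-kB itself induces, differed by 0.28 in 1E8 and 0.16 in 2B4, and IL1B, the cytokine interleukin-1 beta, measured 3.65 in 1E8 and 71.3 in 2B4 with ATP, against 22.8 in 1E8 and 116 in 2B4 without. Both 1E8 values of IL1B were under the limit. Of 6 tested EGF receptor ligands, receptors and sheddases, 3 were above the limit on all 4 arrays. HBEGF described above was the one at least 1.5-fold higher in both, and 3 were lower in both by smaller amounts. These 3, ADAM10, BTC and ERBB2, were in 1E8 above the limit on the control array and not on the ATP array. Nothing is read from their number.

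Regulators of G protein signalling end the signal of receptors such as the P2Y family. Of 18 RGS, arrestin and receptor kinase genes 9 were tested, 6 of them above the limit on all 4 arrays. Of the 9, 0 were higher and 7 (77.8%) lower in both subclones, with a median of -0.32. RGS17 measured 237 in 1E8 and 230.3 in 2B4 with ATP, against 366 in 1E8 and 324 in 2B4 without (-0.53 ± 0.13). RGS10 differed by -0.37 in 1E8 and -0.27 in 2B4. RGS16 and the receptor kinase GRK6 lay in the same direction at intensities near or under the limit. In 1E8 GRK6 was above the limit on the control array and not on the ATP array, and so was RGS16 in 2B4. Both genes are counted among the 7, so nothing is read from that share. Of 10 tested targets and modulators of TGF-beta and BMP, 6 were above the limit on all 4 arrays. Of the 10, 6 were lower and 1 higher in both, with a median of -0.19. Among the lower ones were SMAD6, the inhibitory SMAD of the BMP pathway, at 145 in 1E8 and 96.3 in 2B4 with ATP, against 341 in 1E8 and 133 in 2B4 without, and the BMP antagonist NOG, at 57.6 with ATP and 170.3 without in 2B4 and under the limit in 1E8.

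Chaperones lay higher. Of 18 tested endoplasmic reticulum stress genes, 12 (66.7%) were higher and 0 lower in both subclones, with medians of 0.32 in 1E8 and 0.22 in 2B4. HSPA5, the main chaperone of that compartment (BiP), measured 264 in 1E8 and 202 in 2B4 with ATP, against 165 in 1E8 and 134 in 2B4 without (0.59 ± 0.13). Its partners DNAJB11, at 2862 in 1E8 and 2550.4 in 2B4 with ATP, against 1793 in 1E8 and 1867 in 2B4 without, and HYOU1, with a fitted difference of 0.54 ± 0.14, lay in the same direction. Of 25 tested cytosolic heat shock genes, 16 (64%) were higher and 1 lower in both, with a median of 0.23. The small heat shock protein CRYAB differed by 0.66 in 1E8 and 0.60 in 2B4, and HSPA1B, an inducible HSP70, measured 2865 in 1E8 and 3144 in 2B4 with ATP, against 2311 in 1E8 and 2279.9 in 2B4 without. The integrated stress response, which shares the sensor PERK with the endoplasmic reticulum, did not have this pattern: of 15 tested, 3 were higher and 7 lower in both, with ATF4, its central factor, at -0.36 in 1E8 and -0.25 in 2B4, and PPP1R15A, the subunit that ends it, at 0.58 and 0.33.

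**Figure D4:**
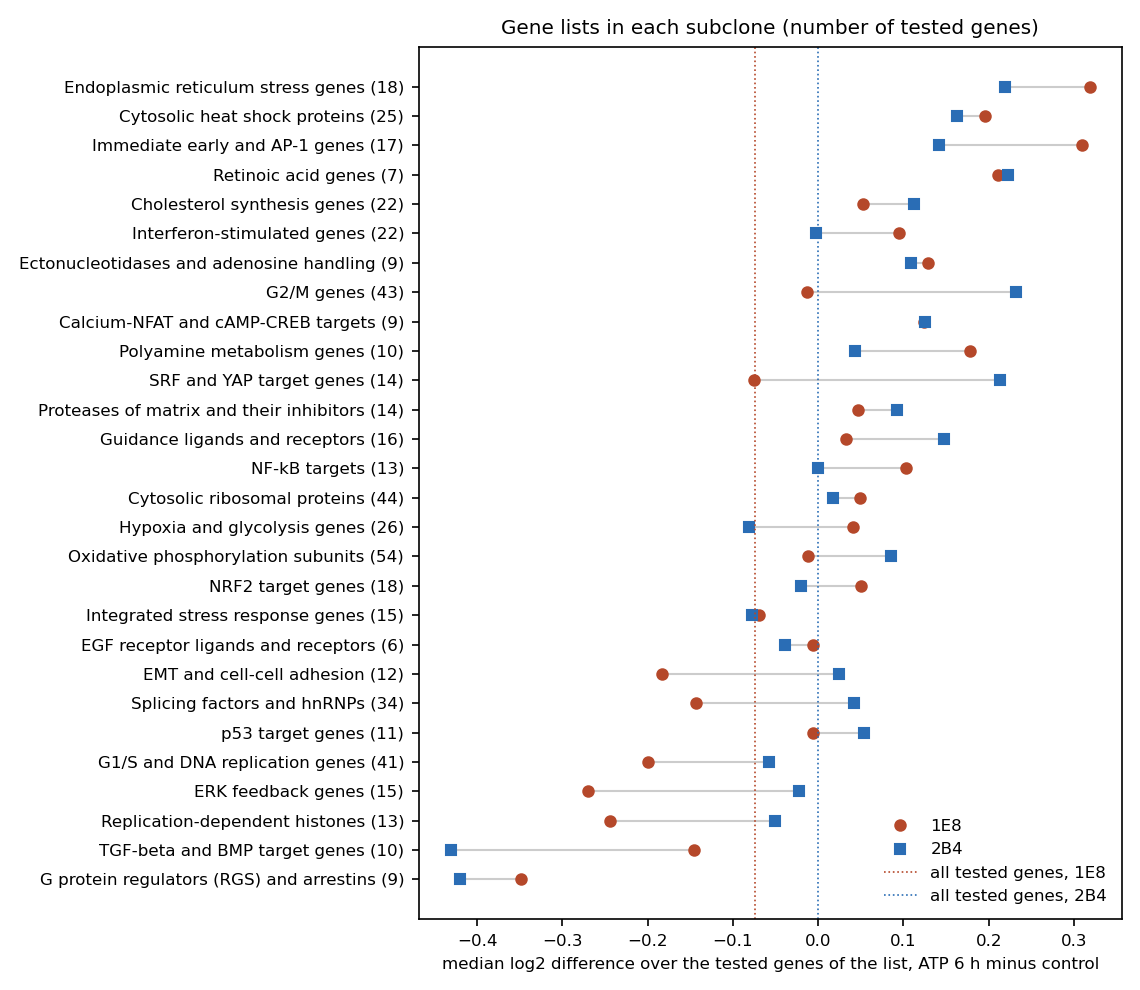
Median log2 difference (ATP 6 h minus control) over the tested genes of each list with at least 5 of them, in 1E8 (circles) and 2B4 (squares). Dotted lines give the median of all 11101 tested genes, -0.07 in 1E8 and 0 in 2B4. Endoplasmic reticulum stress genes lie highest in 1E8 (0.32) and G2/M genes in 2B4 (0.23), while G protein regulators lie lowest in 1E8 (-0.35) and TGF-beta or BMP targets in 2B4 (-0.43).

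Genes of the cell cycle differed by phase. Of 41 tested genes of G1/S and DNA replication, 5 were higher and 23 (56.1%) lower in both subclones, with medians of -0.20 in 1E8 and -0.06 in 2B4. PRIM1, the DNA primase, differed by -0.40 in 1E8 and -0.45 in 2B4, and CHAF1B, a subunit of the chromatin assembly factor, by -0.41 and -0.32. Of 13 tested replication-dependent histones, 9 were above the limit on all 4 arrays. Of the 13, 2 were higher and 7 lower in both. H2AC6 (deposited as HIST1H2AC) was at 70.2 in 1E8 and 131 in 2B4 after ATP and 137 in 1E8 and 201 in 2B4 without. H2BC11 and H3C10, counted among the 7, were in 1E8 above the limit on the control array and not on the ATP array. Nothing is read from the histone counts. Of 43 tested G2/M genes, 21 (48.8%) were higher and 7 lower in both, but the medians were -0.01 in 1E8 and 0.23 in 2B4. GTSE1, a regulator of p53 in G2, differed by 0.45 in 1E8 and 0.84 in 2B4, and the mitotic kinase PLK1 by 0.29 and 0.69. CDKN1A, the cyclin-dependent kinase inhibitor p21, measured 278 in 1E8 and 396 in 2B4 with ATP, against 150.5 in 1E8 and 254 in 2B4 without, while of the 11 tested p53 target genes 3 were higher and 2 lower in both.

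Several smaller groups contained single large values. Of 7 tested retinoic acid genes, 5 were higher and 1 lower in both, led by GPRC5A and DHRS9 and with the retinal reductase DHRS3 at -0.25 in 1E8 and -0.60 in 2B4. Of 10 polyamine genes, 3 were higher and 1 lower in both. SMOX, the spermine oxidase, measured 199 in 1E8 and 87.8 in 2B4 with ATP, against 38.4 in 1E8 and 35.9 in 2B4 without. Its log2 difference was 1.98 in 1E8. In 2B4, where the control was under the limit, the bound was at least 1.67-fold, which is a fold and not in log2. ODC1, the first enzyme of polyamine synthesis, differed by 0.77 in 1E8 and 0.21 in 2B4. Of 22 interferon-stimulated genes, 8 were higher and 5 lower in both. ISG20, an RNA exonuclease, measured 335 in 1E8 and 71.8 in 2B4 with ATP, against 130.1 in 1E8 and 51.8 in 2B4 without. Its 2B4 control was just under the limit. Cholesterol synthesis genes were higher in both for 10 of 22 and lower for 3. Lists of oxidative phosphorylation (54 tested), ribosomal proteins (44), splicing factors (34), hypoxia and glycolysis (26), NRF2 targets (18), guidance molecules (16) and matrix proteases (14) had medians between -0.07 and 0.06. In every list, 0 members passed the limma test adjusted over all genes. The median of each list described here as higher or lower kept its sign under every alternative run.

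Some genes had opposite differences in the subclones. ID1, an inhibitor of differentiation that BMP signalling induces, measured 744 with ATP and 527 without in 1E8, and 395 with ATP and 686 without in 2B4. TWIST1, a transcription factor of epithelial-mesenchymal transition, differed by 0.57 in 1E8 and -0.51 in 2B4. NOL10 (-0.58 in 2B4) and MAGEL2 lay in the same direction. The 2 genes past 1.5-fold each way, given above, have placeholder symbols. In the reverse direction, PTGES3, the HSP90 cochaperone p23, measured 1320.3 with ATP and 2058 without in 1E8, and 1911 with ATP and 1296 without in 2B4. The ligand BMP6 differed by -0.51 in 1E8 and 0.70 in 2B4, and SEC63, TRIQK and TOX4 lay in the same direction. Their adjusted p was 0.99991 for the interaction term in limma, which sets the gap between the subclones at 6 h against their mean gap on the control and 12 h arrays and has 1 residual degree of freedom.

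That term called 1 of 11101 genes (0.00901%), and 205 had an unadjusted p under 0.05. The gene was NCMAP, a protein of peripheral myelin deposited as C1ORF130 (adjusted p = 0.00827). It was dim, at 47.6 with ATP and 27.0 without in 1E8, and -6.20 with ATP and 31.6 without in 2B4, and above the limit on 1 of the 4 arrays, so the size of its difference depends on the offset. With an offset of 50 in place of 16 it was not called, and the smallest adjusted p was 0.354.

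The 12 h arrays share the control arrays with the 6 h arrays, so the values of both times are set side by side and not compared by a test. CXCL8 differed from control by 1.77 at 6 h and 0.34 at 12 h in 1E8, and by 1.34 at 6 h and 0.32 at 12 h in 2B4, where the control was under the limit. TERC differed by 1.33 at 6 h and 0.35 at 12 h in 1E8. AURKA differed by 0.70 at 6 h and 0.22 at 12 h in 1E8 and by 0.90 and 0.20 in 2B4. Others had values of similar size at both times: SPINK13 differed by 1.22 at 6 h and 1.10 at 12 h in 1E8 and by 1.01 and 1.34 in 2B4, and AHNAK2 by -0.77 at 6 h and -1.12 at 12 h in 1E8 and by -0.78 and -1.19 in 2B4. HSPA5 lay above control at 6 h (0.63 in 1E8 and 0.54 in 2B4) and below it at 12 h (-0.37 and -0.32), and RAB26 differed by -0.82 at 6 h and 0.45 at 12 h in 2B4.

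**Figure D5:**
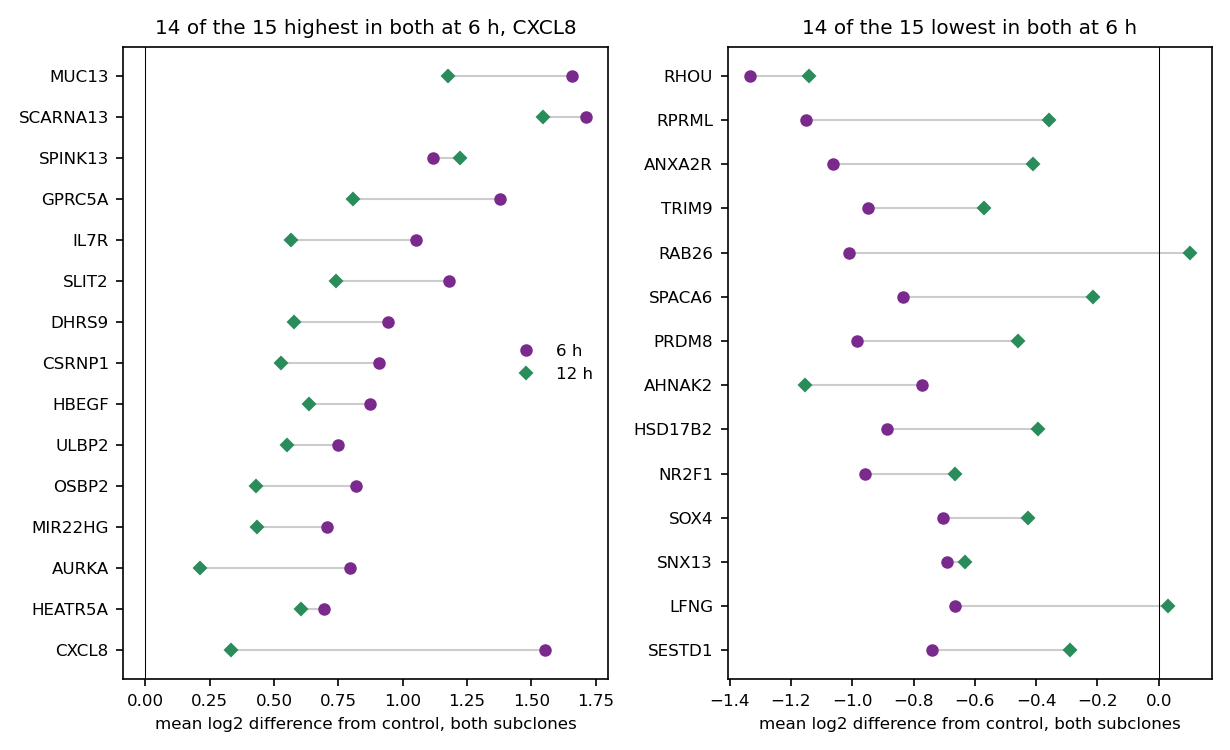
Mean log2 difference from control over both subclones at 6 h (circles) and 12 h (diamonds) for 14 of the 15 highest genes, CXCL8 and 14 of the 15 lowest genes; both times share the same control arrays. The fitted value of CXCL8 is 1.55 at 6 h and its mean at 12 h is 0.33, while SPINK13 and AHNAK2 lie farther from 0 at 12 h than at 6 h.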

How the data were processed

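Illumina bead arrays were hybridised with biotinylated cRNA made with the TotalPrep kit from RNA extracted in Trizol and purified on RNeasy columns, per the labels' protocols. The deposited intensity values are linear and background-subtracted on a common mean; the software behind them is not given in the sources used here. Groups follow the array titles. A further table held 12 columns that no label ties to a sample, and they were not used.

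Intensities below 0 were set to 0, 16 was added and log2 taken. A named entry was tested if any of the 6 arrays had it above the limit, which gave 11101 genes after leaving out 3270 sequence clusters and 132 dimmer entries of the same gene. Of all names, 17757 were current RefSeq symbols, 3303 were synonyms and 13534 matched none. No pair of arrays was identical, and r between the 4 arrays compared was 0.961 to 0.988. limma 3.58.1 in R 4.3.3 fitted subclone plus condition, checked on simulated data, with Benjamini-Hochberg adjustment. The number of arrays limits the precision, and p-values measure the spread between subclones only. Slide and scan were not given and were not tested as batches.

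Named genes are the 15 highest and 15 lowest above the limit on all 4 arrays by the smaller difference of the 2 subclones, skipping placeholder symbols (LOC, FLJ, KIAA, MGC and open reading frame names), 5 each way of opposite sign, the 5 largest bounds in each direction, the leading members of every list (at most 4), the P2 receptors and ectonucleotidases, and genes past the threshold in a fit. A few genes that this rule picks are left unreported. Others are named as chosen after their values were seen. Members, lists and motifs were chosen with earlier results of these data known. Alternatives were another offset, a floor, median scaling, quantile normalization, other filters, the 4 arrays alone, a variance trend, and leaving out each array.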

Additional observations from a re-analysis of the deposited data

Results flagged for a closer look

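The interaction term of NCMAP, 2.53 on the log2 scale, passed the limma test, the only 1 of 11101 genes to do so. The term sets the gap between the subclones at 6 h against their mean gap on the control and 12 h arrays; against control alone, the differences were 0.56 in 1E8 and -1.57 in 2B4. Its ATP and control values were 47.6 and 27.0 in 1E8 and -6.20 and 31.6 in 2B4, and only 1 of the 4 arrays was above its detection limit, so these sizes depend on the offset. Quantile normalization left it called and an offset of 50 did not.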

How the results depend on the processing

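Each group holds 1 array, so the limits are those of 4 arrays: error is measured between subclones alone, and a gene near the detection limit has little signal over background. The number of genes that limma called for 6 h against control was 0 with an offset of 50, a floor of 50, median scaling, quantile normalization, no filter, a limit of 5 widths and the limit passed on all 4 arrays, where 829 genes had an unadjusted p under 0.05 in place of 1087. It was 9 with the 4 arrays alone, 1 with a variance trend and between 5 and 49 without 1 array: 49 without the 2B4 6 h array, 15 without the 1E8 6 h array, 9 without either 12 h array, 8 without the 2B4 control and 5 without the 1E8 control. Each such fit leaves a condition with 1 array, assumed to vary like the others, so calls gained there do not add support. Genes at least 1.5-fold higher in both subclones numbered 15 with an offset of 50, 206 without a filter and 5 at 2-fold, against 24, and those lower numbered 14, 141 and 4, against 30, and 50 with a floor of 50. With both 1E8 arrays left out, an alternative chosen after seeing the data because the 1E8 control array stood apart, the genes past 1.5-fold in 2B4 alone, a wider count than that of genes in both, numbered 87 and 111. The same-sign share was 54.6% without a filter. The interaction called 0 genes with an offset of 50 and 0 over the genes detected on all 4 arrays (smallest adjusted p 0.160, with 54 genes at an unadjusted p under 0.05). Of 2255 alternative values for 154 named genes, 4 turned their sign: without 1 array ERBB2 ranged between -0.25 and 0.0195 and RGS2 between -0.56 and 0.0526 (highest without the 1E8 control), and DSC2 between -0.0618 and 0.21 and KRT18 between -0.00346 and 0.18 (lowest without the 2B4 6 h array). A further 56 passed the threshold that they miss in the fit over 6 arrays, and 2195 kept sign and call. Medians of 12 of 29 lists turned sign in 25 of 202 alternative values. The cause of these changes was not tested. By replicate number, no paired analysis was possible because every group holds 1 array, numbered 1 in all. The subclone term already sets each ATP array against the control of its own subclone.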

Other observations

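The genes that follow the 15 highest were chosen here after their values were seen. PMP22, a membrane protein of myelin and epithelia, measured 1481 in 1E8 and 995 in 2B4 with ATP, against 633 in 1E8 and 657 in 2B4 without. FBN2, an extracellular microfibril protein, measured 663 in 1E8 and 436 in 2B4 with ATP, where both controls were at 289. FGFBP1, which releases fibroblast growth factors from the matrix, measured 822 in 1E8 and 789 in 2B4 with ATP, against 466 in 1E8 and 513 in 2B4 without, and ATP1B1, a subunit of the sodium pump, 653 in 1E8 and 556 in 2B4, against 405 in 1E8 and 271 in 2B4. Below the 15 lowest lay SYNCRIP, an RNA-binding protein, at 600.0 in 1E8 and 535 in 2B4 with ATP, against 978 in 1E8 and 819 in 2B4 without, and KLHDC2, a substrate receptor of a ubiquitin ligase, at 675 in 1E8 and 757 in 2B4, against 1067 in 1E8 and 1209 in 2B4.

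The small nucleolar RNA SNORA12 measured 211 in 1E8 and 274 in 2B4 with ATP, against 87.3 in 1E8 and 41.9 in 2B4 without. SNORA79 measured 66.3 in 1E8 and 138 in 2B4 with ATP, against 35.9 in 1E8 and 6.47 in 2B4 without. Both 2B4 controls were under the limit, so in 2B4 they were at least 5.23-fold and at least 2.62-fold higher. Both are guide RNAs of the H/ACA class, and both were chosen after their values were seen. Of 34 tested SNORA entries, 15 were above the limit on all 4 arrays. Of the 34, 9 were higher and 8 lower in both subclones, with a median of 0.005. Of 37 tested SNORD entries, 11 were above the limit on all 4 arrays. Of the 37, 2 were higher and 18 lower in both, but 1 and 5 with values under 50 set to 50. Over all tested genes the shares were 21.8% higher and 31.8% lower in both. Most entries of either class were dim on some of the arrays, so nothing is read from these counts.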
